A study of Homo sapiens with 14 samples.

Results

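HMOX1 and 9 genes around it, the transcription factors NFE2L2 (NRF2) and BACH1, the NRF2 adaptor KEAP1, and the target genes NQO1, GCLC, GCLM, SLC7A11, TXNRD1 and SRXN1, were followed in polyadenylated RNA from 2 cancer cell lines in normoxia and hypoxia. The 10 genes were taken by symbol from the count tables, which hold 23106 symbols, and all 10 were present and passed the filter on low counts in every comparison. They were chosen because HMOX1 rose more in hypoxic PC3 cells than any of the 14309 genes tested there, so the PC3 response is given as a description, with estimates and errors but without p-values.

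Heme oxygenase 1, the product of HMOX1, opens the heme ring and releases iron, carbon monoxide and biliverdin. NRF2 is kept low by KEAP1, which presents it to a ubiquitin ligase; when cells meet oxidants or electrophiles NRF2 escapes, pairs with small MAF proteins and binds antioxidant response elements near its targets. BACH1 binds the same elements with the same partners and represses them until heme displaces it, and HMOX1 is the classical gene that BACH1 holds down.

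PC3, a line established from a prostate carcinoma, and HCT116, from a colorectal carcinoma, were kept in 21% O2 (normoxia) or 0.5% O2 (hypoxia) for 16 h, as 4 PC3 and 3 HCT116 libraries for each oxygen level. The labels name no engineered change in either line. PC3 was grown in DMEM/Ham's F12 and HCT116 in McCoy's 5a, both with 10% fetal bovine serum, so line and medium cannot be told apart. The study's methods call the RNA-seq replicates biological, while the labels only number them and do not describe the cultures. P-values measure the spread between these libraries. In bulk RNA a change in every cell cannot be told from a larger change in some of them.

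The libraries held 71228454 to 150630928 counts. Levels are given as CPM, counts scaled to a library of common size with TMM factors over all 14 libraries, and log2 fold changes come from edgeR fits within each comparison. CA9, NDRG1, VEGFA and EGLN3, textbook hypoxia-inducible genes, passed the test as higher in hypoxia in both lines, by 0.65 to 2.87 on the log2 scale in PC3 and by 1.10 to 6.03 in HCT116 (edgeR, adjusted p at most 0.0192 and 2.07e-06). CA9 was low in PC3, at 0.107 to 0.375 CPM in normoxia and 0.536 to 0.918 CPM in hypoxia, against 7.15 to 8.83 CPM in hypoxic HCT116. The epithelial genes EPCAM, KRT8 and KRT18 were abundant in every library. HOXB13 (61.8 to 92.7 CPM in PC3, 9.59 to 10.96 in HCT116) and CDX2 (0 in PC3, 16.2 to 20.9 CPM in HCT116) separated the lines. The differentiation markers KLK3, CDX1, CDH17, LGALS4 and VIL1 were at or near 0 in both. The summed level of 8 markers of blood, endothelial and stromal cells was 44.6 to 49.8 CPM in normoxic and 51.5 to 60.7 CPM in hypoxic PC3 libraries, and 17.6 to 20.6 and 23.0 to 23.4 CPM in HCT116. CD68 made up most of it in PC3, PTPRC stayed under 0.794 CPM, and the part of this sum in the results was not tested. PC3 replicate 1 stood apart in both conditions for several genes named below, and values without it stand beside the results whose call or size it decided.

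The first question was how strongly HMOX1 responded in each line. HMOX1 lies on chromosome 22 from 35776354 to 35790207 (plus strand, GRCh37). In normoxic PC3 libraries it was at 9.16, 7.83, 6.32 and 7.88 CPM, and in hypoxic ones at 81.9, 83.3, 107 and 77.1 CPM. No hypoxic library came near a normoxic one, and the mean rose 11.2-fold, from 7.80 ± 1.16 to 87.4 ± 13.5 CPM (SD, n = 4 and 4). The log2 fold change was 3.49 ± 0.15 (standard error), and by replicate number the ratio ran from 8.93-fold in replicate 1 to 16.9-fold in replicate 3.

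In HCT116, HMOX1 was at 30.1, 28.2 and 31.3 CPM in normoxia and at 25.9, 30.2 and 26.7 CPM in hypoxia. The conditions overlapped. The log2 fold change was -0.10 ± 0.08 (standard error, 95% interval -0.26 to 0.07, edgeR adjusted p = 0.379), so a rise of the size seen in PC3 lay far outside the interval. The difference between the responses of the lines was 3.60 ± 0.18 on the log2 scale, given without a test because the PC3 response enters it.

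**Figure D1:**
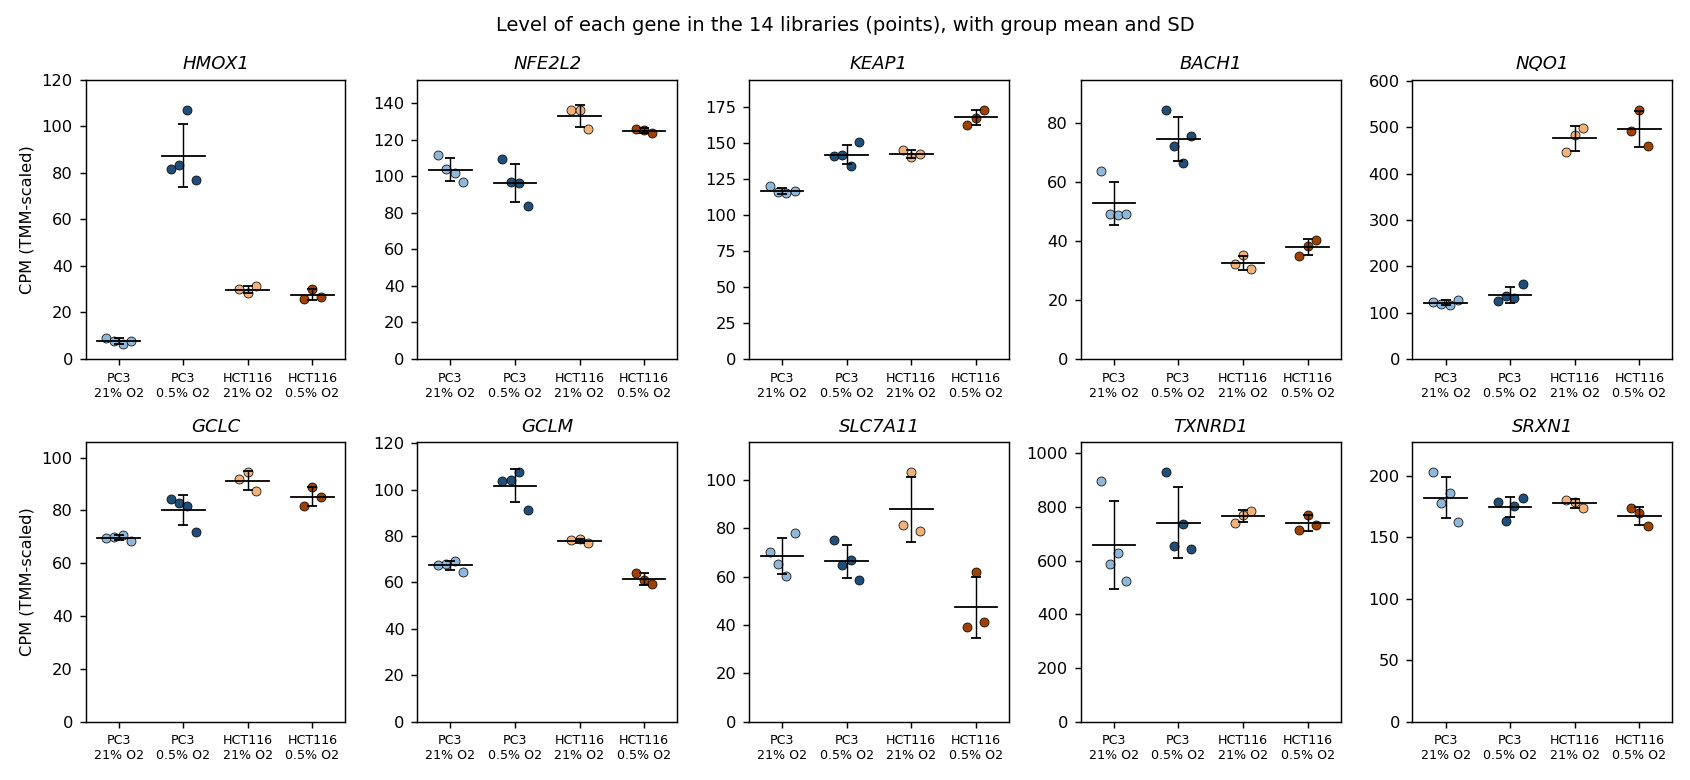
Level of each of the 10 genes in CPM (vertical axes, from 0) in every library, by line and oxygen. Points are libraries, horizontal lines are group means and bars are SD (n = 4 for PC3, n = 3 for HCT116); HMOX1 rose from 6.32 to 9.16 CPM up to 77.1 to 107 CPM in PC3 and stayed between 25.9 and 31.3 CPM in HCT116.

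The starting levels of the lines also differed. In normoxia HMOX1 was 3.83-fold higher in HCT116 (29.9 ± 1.52 CPM, n = 3) than in PC3, and in hypoxia the order turned, with PC3 3.17-fold above HCT116. Per kilobase of transcript, HMOX1 was the lowest of the 10 genes in normoxic PC3 cells at 5.02 CPM per kb, below SLC7A11 at 7.09, and the ranges of these neighbours did not overlap. In hypoxic PC3 cells it was the third at 56.2 CPM per kb, where its range overlapped those of SRXN1 (69.1), KEAP1 (55.3) and NQO1 (54.8). In HCT116 it held the seventh place in both conditions, at 19.2 and 17.8 CPM per kb, between GCLC and GCLM, and overlapped neither. TXNRD1 led in both conditions of PC3, and in HCT116 TXNRD1 and NQO1 shared the top with overlapping ranges.

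**Figure D2:**
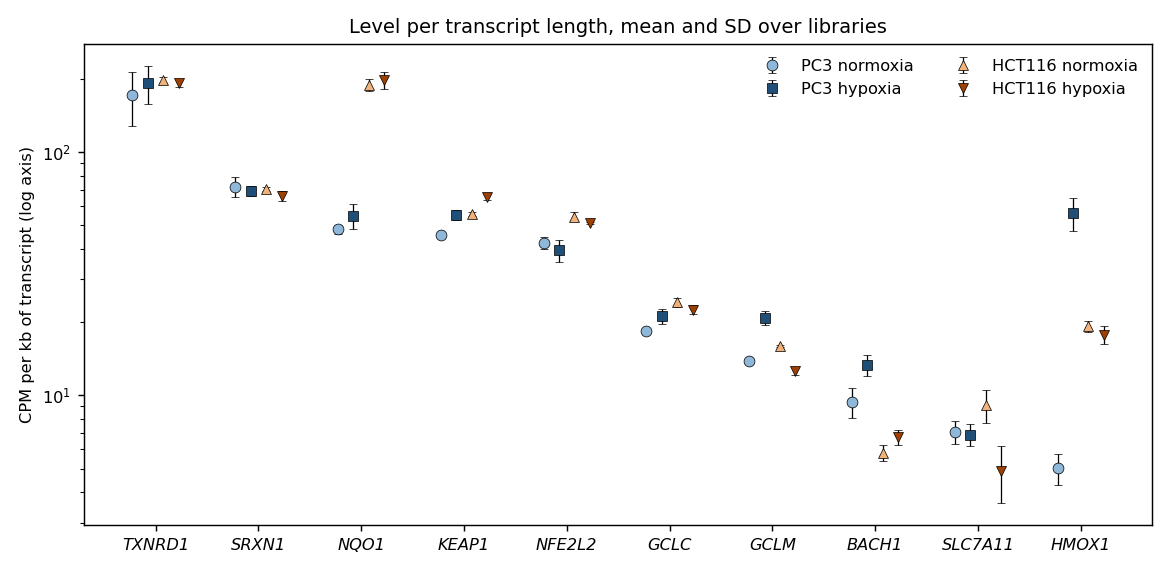
Level in CPM per kb of transcript (vertical log axis) of the 10 genes, ordered by their level in normoxic PC3 cells; symbols are group means and bars SD over libraries (n = 4 for PC3, n = 3 for HCT116). HMOX1 moved from the last place at 5.02 to the third at 56.2 CPM per kb in PC3, and NQO1 was at 189 and 197 CPM per kb in HCT116 against 48.1 and 54.8 in PC3.

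The regulators were taken next. NFE2L2, which encodes NRF2, lies on chromosome 2 (178083395 to 178257484, minus strand). It was at 112, 104, 102 and 96.8 CPM in normoxic and 109, 96.6, 96.5 and 83.7 CPM in hypoxic PC3 libraries, and at 136, 136 and 126 against 126, 125 and 123 CPM in HCT116. The conditions overlapped in both lines, with log2 fold changes of -0.10 ± 0.09 in PC3 and -0.07 ± 0.06 in HCT116 (standard error, edgeR adjusted p = 0.430 in HCT116). In the annotation 23.4% of its exonic bases overlap HNRNPA3 on the other strand, and the sources used here do not state whether counting used strand, so its counts are uncertain.

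KEAP1, the adaptor that marks NRF2 for degradation (chromosome 19, 10596801 to 10614234, minus strand), was higher in hypoxia in both lines. The PC3 libraries gave 119.9, 116, 115 and 116 CPM in normoxia and 141, 142, 134 and 151 CPM in hypoxia, and the HCT116 libraries 145, 139.96 and 142 against 163, 167 and 173 CPM. The conditions did not overlap in either line. The log2 fold change was 0.29 ± 0.06 in PC3, and 0.25 ± 0.06 in HCT116, where it passed the test (edgeR adjusted p = 0.00984). The call in HCT116 was lost with scaling by total count (0.16) and without HCT116 normoxia replicate 2 (0.23).

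BACH1 (chromosome 21, 30566392 to 31003071, plus strand), the repressor, was at 63.8, 49.3, 48.7 and 49.3 CPM in normoxic and 84.6, 72.3, 66.6 and 75.5 CPM in hypoxic PC3 libraries. Every hypoxic library was above every normoxic one, although normoxic replicate 1 stood well above the other 3. The log2 fold change was 0.51 ± 0.12. In HCT116 BACH1 went from 32.2, 35.3 and 30.5 to 35.0, 38.3 and 40.4 CPM, with overlapping conditions and a log2 fold change of 0.23 ± 0.07 that just passed (edgeR adjusted p = 0.0408). Some of its exonic bases overlap LINC00189 and GRIK1, so part of its counts is uncertain. The HCT116 call was lost in 8 of 14 alternative analyses, with fold changes from 0.14 to 0.22 in those.

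For each count of NFE2L2 there were 0.508 ± 0.045 counts of BACH1 in normoxic PC3 and 0.779 ± 0.089 in hypoxic PC3 libraries (SD, n = 4). In HCT116 the ratio was 0.246 ± 0.012 and 0.304 ± 0.025 (n = 3). PC3 thus had the higher ratio in both conditions, and BACH1 itself was 0.68 ± 0.11 (log2) higher in PC3 than in HCT116 in normoxia (edgeR adjusted p = 0.000287). These are RNA ratios and carry no measure of the proteins.

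**Figure D3:**
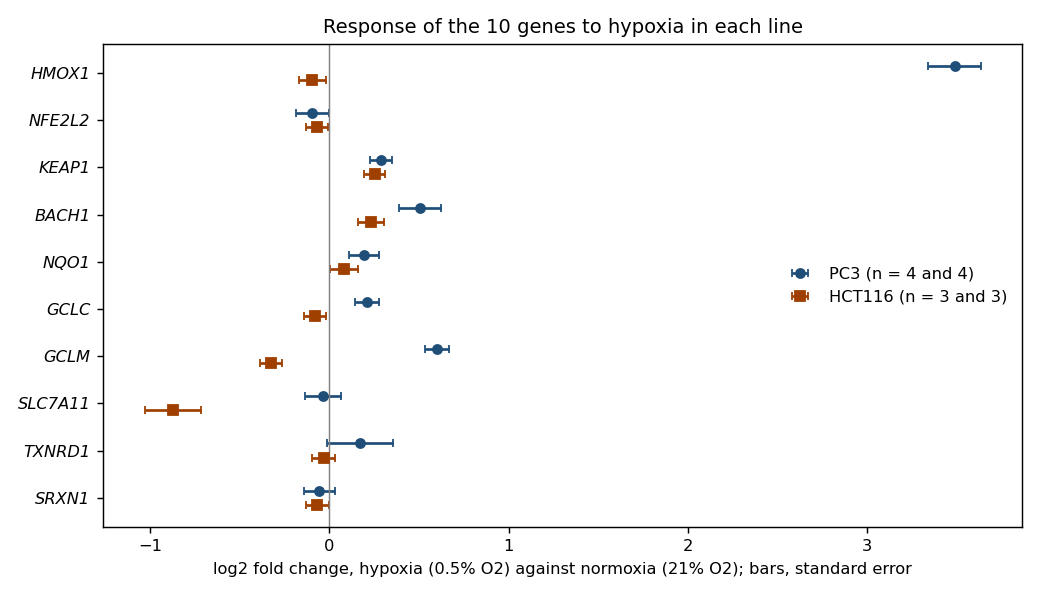
Log2 fold change in hypoxia against normoxia (horizontal axis) of the 10 genes in PC3 (circles) and HCT116 (squares); bars are standard errors of the edgeR estimates. HMOX1 in PC3 lay at 3.49, GCLM had opposite signs in the lines (0.60 and -0.33), and SLC7A11 lay at -0.87 in HCT116.

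After HMOX1, GCLM and SLC7A11 had the largest differences between the responses of the lines among the 10 genes, at 0.94 and 0.85 (log2). Without HCT116 hypoxia replicate 2 SLC7A11 stood at 1.09 ± 0.17, above the 0.98 that GCLM reached at most, so their order is not settled. GCLM is the modifier and GCLC the catalytic subunit of glutamate-cysteine ligase, the rate-limiting enzyme of the pathway. GCLM (chromosome 1, 94350755 to 94375012, minus strand) was at 67.4, 68.0, 69.1 and 64.7 CPM in normoxic and 104, 104, 107 and 91.4 CPM in hypoxic PC3 libraries. In HCT116 it went the other way, from 78.4, 78.5 and 76.9 to 64.1, 61.0 and 59.2 CPM. Neither line had overlap between its conditions. The log2 fold change was 0.60 ± 0.07 in PC3 and -0.33 ± 0.06 in HCT116 (edgeR adjusted p = 0.00369), a difference of 0.94 ± 0.09.

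GCLC (chromosome 6, 53362139 to 53481768, minus strand) moved less. It was at 69.5, 70.1, 70.5 and 68.4 CPM in normoxic and 84.3, 82.8, 81.7 and 71.8 CPM in hypoxic PC3 libraries, without overlap, and its log2 fold change was 0.21 ± 0.07. In HCT116 the conditions overlapped, at 91.8, 94.4 and 87.3 against 81.7, 88.8 and 85.0 CPM (-0.08 ± 0.06, edgeR adjusted p = 0.374). As counts of GCLM per count of GCLC, the subunits stood at 0.967 ± 0.014 in normoxic and 1.27 ± 0.035 in hypoxic PC3 libraries, and at 0.856 ± 0.025 and 0.722 ± 0.054 in HCT116. The ratio does not depend on how libraries were scaled, and its conditions did not overlap in either line.

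SLC7A11 (chromosome 4, 139085251 to 139163503, minus strand) is the cystine transporter that feeds glutathione synthesis. It had the largest fall of the 10 genes in HCT116, from 81.3, 103 and 78.9 CPM in normoxia to 39.1, 61.8 and 41.2 CPM in hypoxia. Replicate 2 was the highest in both conditions, and the conditions did not overlap. The log2 fold change was -0.87 ± 0.16 (edgeR adjusted p = 0.00254), which ranked 188 from the lowest of the 14120 genes tested. In PC3 the libraries gave 70.0, 65.4, 60.2 and 78.0 CPM in normoxia and 75.3, 64.6, 66.8 and 58.7 CPM in hypoxia, which overlapped (-0.04 ± 0.10).

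Promoters of some of these genes are shown because they are where NRF2 and BACH1 would be looked for. RefSeq promoter windows, from 250 bases before to 50 after each start, were matched for 8 of the 10 genes. HMOX1 and SLC7A11 had no window in the promoter set used, so their promoters were not searched and no motif count below covers them. The windows below are the 250 bases before the start, 5′ to 3′ on the gene's strand, placed by exact match on GRCh37. Capitals mark the core of the antioxidant response element (TGACNNNGC) and that of the hypoxia response element (ACGTG or GCGTG), searched on both strands. GCLM lies at chr1:94374987-94375236 (minus strand, with 26 exonic bases of other transcripts), GCLC at chr6:53409900-53410149 (minus strand) and the upstream start of TXNRD1 at chr12:104609307-104609556 (plus strand).
GCLM: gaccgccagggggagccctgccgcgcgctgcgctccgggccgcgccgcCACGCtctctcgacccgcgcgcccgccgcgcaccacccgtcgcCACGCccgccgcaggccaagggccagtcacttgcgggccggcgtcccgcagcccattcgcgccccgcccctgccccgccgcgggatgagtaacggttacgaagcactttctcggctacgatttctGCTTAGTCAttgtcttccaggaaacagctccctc
GCLC: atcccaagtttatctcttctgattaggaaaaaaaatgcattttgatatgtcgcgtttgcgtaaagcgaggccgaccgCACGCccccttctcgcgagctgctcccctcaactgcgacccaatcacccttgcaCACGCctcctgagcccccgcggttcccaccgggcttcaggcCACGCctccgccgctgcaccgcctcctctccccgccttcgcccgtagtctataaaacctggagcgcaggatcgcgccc
TXNRD1: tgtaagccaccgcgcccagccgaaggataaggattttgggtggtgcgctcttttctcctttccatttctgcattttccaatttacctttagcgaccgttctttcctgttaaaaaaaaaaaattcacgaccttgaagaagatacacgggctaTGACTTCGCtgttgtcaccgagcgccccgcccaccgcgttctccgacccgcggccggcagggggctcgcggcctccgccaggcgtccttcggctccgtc

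The GCLM window holds an antioxidant core at -34 from the start, read as TGACTAAGC on the other strand, and hypoxia cores at -202 and -159. The same TGACTAAGC stands at -31 in a KEAP1 window. GCLC has 3 hypoxia cores and no antioxidant core in these 250 bases. In the 300-base windows 3 of the 8 genes (KEAP1, GCLM and TXNRD1) held the antioxidant core against 13.3% of 35116 windows, and in the 1000 bases before the start 4 of 8 (NQO1 at -455, GCLC at -870, GCLM and TXNRD1) against 32.5% of 19894. The hypoxia core was in a window of all 8, and in 48.4% of all 300-base windows. A match is a string of letters and not a measured site, and genes with several starts had more windows to hold one.

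NQO1, TXNRD1 and SRXN1 did not pass the test in HCT116, and in PC3 their conditions overlapped. NQO1 (chromosome 16, 69740899 to 69760571, minus strand), a quinone reductase, was at 116 to 128 CPM in normoxic and 125 to 162 CPM in hypoxic PC3 libraries, and at 446 to 498 and 460 to 538 CPM in HCT116. The conditions overlapped in both lines (0.19 ± 0.09 in PC3, 0.08 ± 0.08 in HCT116, edgeR adjusted p = 0.479). TXNRD1 (chromosome 12, 104609557 to 104744085, plus strand), the cytosolic thioredoxin reductase, was at 896, 587, 629.5 and 525 CPM in normoxic and 929, 653, 736 and 644 CPM in hypoxic PC3 libraries. Replicate 1 was the highest in both conditions. The fold changes were 0.17 ± 0.19 in PC3 (0.37 ± 0.14 without normoxia replicate 1) and -0.03 ± 0.06 in HCT116 (edgeR adjusted p = 0.749), where all libraries lay between 714 and 785 CPM. SRXN1 (chromosome 20, 627259 to 633844, minus strand), which repairs overoxidised peroxiredoxins, lay between 162 and 203 CPM in PC3 and between 159 and 181 CPM in HCT116. Its fold changes were -0.06 ± 0.09 and -0.07 ± 0.06 (edgeR adjusted p = 0.459 in HCT116), and in HCT116 every hypoxic library was just below every normoxic one. In the annotation 90.66% of the exonic bases of SRXN1 overlap another gene on the same strand. For NQO1 19.35% overlap one on the other strand, so the counts of both are uncertain.

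Counted over the 10 genes, 4 passed the threshold of an adjusted p of 0.05 in PC3 (HMOX1, KEAP1, BACH1 and GCLM, all higher) beside 11.3% of the 14309 genes tested, and nothing is read from that count since the PC3 response chose the genes. With the replicate number as a block GCLC joined them, all 5 higher, beside 28.5% of all genes in either direction and 14.9% higher. The conditions did not overlap for 5 of 10 in PC3, all higher, beside 21% of all genes and 9.62% in that direction. In HCT116 4 of 10 passed (KEAP1 and BACH1 higher, GCLM and SLC7A11 lower) beside 25.9% of 14120 genes, and the conditions did not overlap for 4 (KEAP1 higher, GCLM, SLC7A11 and SRXN1 lower), beside 42.5% of all genes, 20.2% higher and 22.2% lower. Neither share is a result about these genes as a set. The median log2 fold change of the 10 was 0.20 in PC3 and -0.07 in HCT116, against 0.00233 and 0.00178 over all genes tested. Scaling by total count moved the median of all genes by -0.10 in PC3, and of the genes it called in PC3 562 were higher and 1733 lower, against 863 and 757 with TMM and 681 and 1048 with upper-quartile scaling. In HCT116 these calls were 1286 higher and 3146 lower, against 2061 and 1597.

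HMOX1 was then set against the other 6 targets within each library, which removes the scaling. Its log2 CPM minus the mean log2 CPM of NQO1, GCLC, GCLM, SLC7A11, TXNRD1 and SRXN1 was -3.93, -4.00, -4.31 and -3.98 in normoxic and -0.92, -0.76, -0.45 and -0.85 in hypoxic PC3 libraries. In HCT116 it was -2.59, -2.77 and -2.54 in normoxia and -2.56, -2.49 and -2.49 in hypoxia. HMOX1 therefore gained 3.31 on its fellow targets in PC3 and 0.12 in HCT116, and the small HCT116 value was -0.00191 when the median of the 6 targets took the place of the mean.

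The same comparison with NQO1 alone gave a different picture of the baseline. For each 1000 counts of NQO1 there were 64.2 ± 8.50 counts of HMOX1 in normoxic PC3 libraries (54.4 to 74.7) and 62.9 ± 4.52 in normoxic HCT116 libraries (58.4 to 67.4). Both genes were thus lower in normoxic PC3 to a like degree, 3.83-fold for HMOX1 and 3.92-fold for NQO1, and the ranges of their ratio overlapped. In hypoxia the ratio was 641 ± 141 in PC3 (477 to 818) and 55.6 ± 2.68 in HCT116 (52.6 to 57.9), with HMOX1 11.2-fold higher in PC3 than in normoxia and NQO1 overlapping between its conditions.

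**Figure D4:**
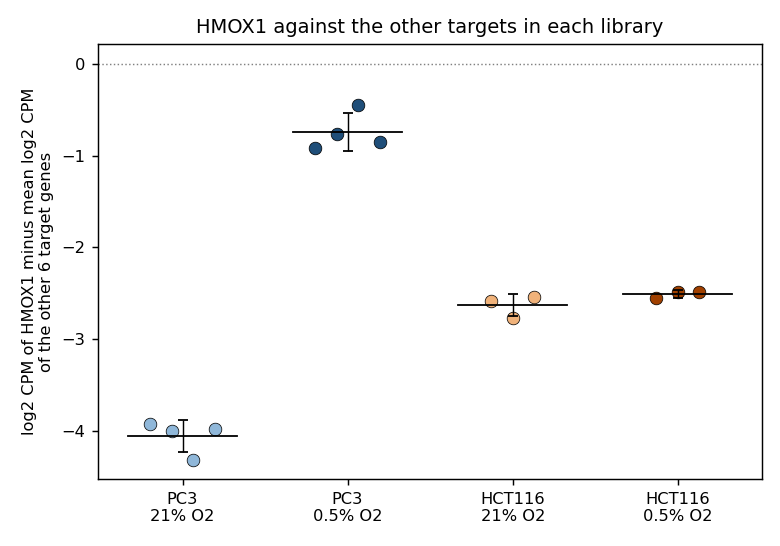
Log2 CPM of HMOX1 minus the mean log2 CPM of the other 6 targets (vertical axis) in each library; lines are group means and bars SD (n = 4 for PC3, n = 3 for HCT116). PC3 libraries moved from -4.31 to -3.93 in normoxia up to -0.92 to -0.45 in hypoxia, and HCT116 libraries stayed between -2.77 and -2.49.

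Between the lines in normoxia, 8 of the 10 genes passed the threshold, beside 83.4% of the 15206 genes tested, so a difference between the lines was the rule for genes at large. BACH1 was higher in PC3 (42.9% of all genes were), and HMOX1, NFE2L2, KEAP1, NQO1, GCLC, GCLM and SLC7A11 were lower (40.5% of all genes were). HMOX1 and NQO1 were the 2 whose log2 difference was also at least 1 in size, beside 44.4% of all genes. The normoxic PC3 libraries also entered the contrast by which HMOX1 was picked, so its -1.95 ± 0.12 is given without a test. HMOX1 stays in the counts above, but nothing is read from its call. Of the others that were lower in PC3, NQO1 had the largest difference at -1.99 ± 0.06 (edgeR adjusted p = 3.63e-09), followed by GCLC at -0.40 ± 0.05, SLC7A11 and NFE2L2 at -0.37, KEAP1 at -0.30 and GCLM at -0.23 ± 0.05 (edgeR adjusted p = 0.0105 or less). TXNRD1 (-0.23 ± 0.17, edgeR adjusted p = 0.226) and SRXN1 (0.02 ± 0.08, edgeR adjusted p = 0.801) did not pass. Without PC3 normoxia replicate 1 TXNRD1 stood at -0.41 ± 0.07 and passed, and SRXN1 turned to -0.03.

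A wider list of 68 genes of the pathway, chosen by textbook role with earlier results of these data known, gave the setting. In PC3 7 of 68 (10.3%) passed, 6 higher and 1 lower, beside 6.03% and 5.29% of all genes in those directions, and with the replicate block 28 of 68 (41.2%) passed, 23 higher and 5 lower, beside 14.9% and 13.6% of all genes. Without both libraries of PC3 replicate 1 the count was 11, all higher, without the filter on low counts it was 4, and leaving out 1 PC3 library gave 2 (normoxia replicate 2, 3 or 4, or hypoxia replicate 2), 3 (hypoxia replicate 1), 4 (hypoxia replicate 3) or 11 (hypoxia replicate 4). In HCT116 14 of 64 tested (21.9%) passed, 8 higher and 6 lower, beside 14.6% and 11.3%. The median log2 fold change was 0.10 in PC3 and 0.02 in HCT116. Asking in addition for a log2 fold change of 1 or more in size, which 1.43% of all genes in PC3 and 2.06% in HCT116 had, left 0 genes of the list in either line with edgeR.

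Of 12 genes for the partners, regulators and degradation of NRF2, 2 passed in HCT116 (16.7%) and 1 in PC3 (8.33%) without the block, beside 25.9% and 11.3% of all genes. The small MAF gene MAFF rose in HCT116 by 0.83 ± 0.08 (log2, edgeR adjusted p = 3.92e-05), from 14.2 ± 0.789 to 24.9 ± 2.21 CPM, and NFE2L1, the NRF2 relative that controls proteasome genes, by 0.42 ± 0.07 (edgeR adjusted p = 0.00112). In PC3 the values were 0.38 ± 0.19 and 0.21 ± 0.12, which did not pass with all libraries and no block and did with the block. MAFF also passed without PC3 normoxia replicate 1, at 0.59 ± 0.14, and without both libraries of PC3 replicate 1, at 0.44 ± 0.06. The difference between the lines did not pass for either (edgeR interaction, adjusted p = 0.389 and 0.582). MAFG and MAFK, the other small MAF genes, did not pass in either line. SQSTM1, whose product sequesters KEAP1, was at 0.42 ± 0.18 in PC3 (edgeR adjusted p = 0.170) and at -0.00425 ± 0.06 in HCT116. In PC3 it was past the threshold with the block. It also passed there without normoxia replicate 1, at 0.62 ± 0.13, and without both libraries of replicate 1, at 0.50 ± 0.10. GSK3B, a kinase that primes NRF2 for degradation, rose in PC3 by 0.25 ± 0.07 (edgeR adjusted p = 0.0434).

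Among 18 genes of heme and iron handling 3 passed in PC3 (16.7%) and 5 in HCT116 (27.8%) without the block, beside 11.3% and 25.9% of all genes. With the block ABCB6, BLVRB, CPOX, FTH1 and FTL passed as higher in PC3 and FECH, FLVCR1, PPOX and SLC40A1 as lower. Under that fit 28.5% of all genes in PC3 passed. ABCB6, a porphyrin transporter, and CPOX, an enzyme of heme synthesis, rose in both lines: ABCB6 by 0.57 ± 0.10 and 0.69 ± 0.07 (edgeR adjusted p = 0.00694 and 5.90e-05) and CPOX by 0.42 ± 0.06 and 0.25 ± 0.06 (edgeR adjusted p = 0.00361 and 0.0132). PPOX, the next enzyme of the pathway, fell in PC3 by 0.35 ± 0.10 on the log2 scale (edgeR adjusted p = 0.0447, lost in 9 of 17 alternatives). In HCT116 SLC48A1, a heme transporter, fell by 0.22 ± 0.07 (edgeR adjusted p = 0.0410).

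Of the genes for proteins that act beside or after heme oxygenase 1, only FTH1 in HCT116 passed the test with all libraries and no block. HMOX2, the constitutive isoform, was at 57.4 ± 2.81 and 60.4 ± 2.12 CPM in normoxic and hypoxic PC3 libraries and at 57.6 ± 2.59 and 59.4 ± 2.60 CPM in HCT116. The biliverdin reductase genes BLVRA and BLVRB had log2 fold changes of 0.05 ± 0.06 and 0.26 ± 0.14 in PC3 and of 0.02 ± 0.07 and 0.18 ± 0.09 in HCT116. None of these passed with all libraries and no block. BLVRB passed in PC3 with the block. It also passed without PC3 normoxia replicate 1, at 0.41 ± 0.10, and without both libraries of PC3 replicate 1, at 0.34 ± 0.08. The ferritin genes FTH1 and FTL, whose proteins store iron, were at 0.39 ± 0.16 and 0.36 ± 0.16 in PC3, where both passed with the block. FTH1 also passed without PC3 normoxia replicate 1, at 0.55 ± 0.13, and without both libraries of PC3 replicate 1, at 0.44 ± 0.09. In HCT116 FTH1 rose by 0.27 ± 0.06 (edgeR adjusted p = 0.00872, lost in 2 of 14 alternatives) while FTL stood at 0.17 ± 0.07 (edgeR adjusted p = 0.0876). Ferritin genes have many processed copies in the genome, so their counts are uncertain.

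In the remaining groups, TRIM16L, which belongs to the list as an NRF2-responsive gene, and ME1, the malic enzyme that supplies NADPH, had opposite responses. TRIM16L went from 10.97 ± 1.78 to 16.4 ± 2.55 CPM in PC3 and from 8.72 ± 0.527 to 5.17 ± 0.244 CPM in HCT116, and ME1 from 89.0 ± 4.61 to 107.8 ± 7.32 and from 139 ± 7.16 to 106 ± 9.26 CPM. The differences between the lines were 1.34 ± 0.18 and 0.67 ± 0.11 on the log2 scale (edgeR interaction, adjusted p = 0.00109 and 0.00446), and each was past the threshold in both lines, although in PC3 the call was lost in 7 of 17 alternative analyses for TRIM16L and in 9 of 17 for ME1. Both genes were named by their responses in these libraries, so the interaction test is no independent support for the opposite directions. TRIM16L has a near-identical relative in TRIM16, so its counts are uncertain. UGDH, an enzyme of glucuronic acid synthesis, rose in PC3 by 0.34 ± 0.08 (edgeR adjusted p = 0.0294, lost in 6 of 17 alternatives) and was at -0.15 ± 0.07 in HCT116 (edgeR adjusted p = 0.121). In HCT116 the conjugate exporters parted, with ABCC1 higher by 0.37 ± 0.08 and ABCC2 lower at -0.46 ± 0.11 (edgeR adjusted p = 0.00595 and 0.00961). GSTP1 was 0.28 ± 0.07 and PGD 0.28 ± 0.08 higher, and NQO2 fell by 0.46 ± 0.08 (edgeR adjusted p = 0.0261 or less).

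**Figure D5:**
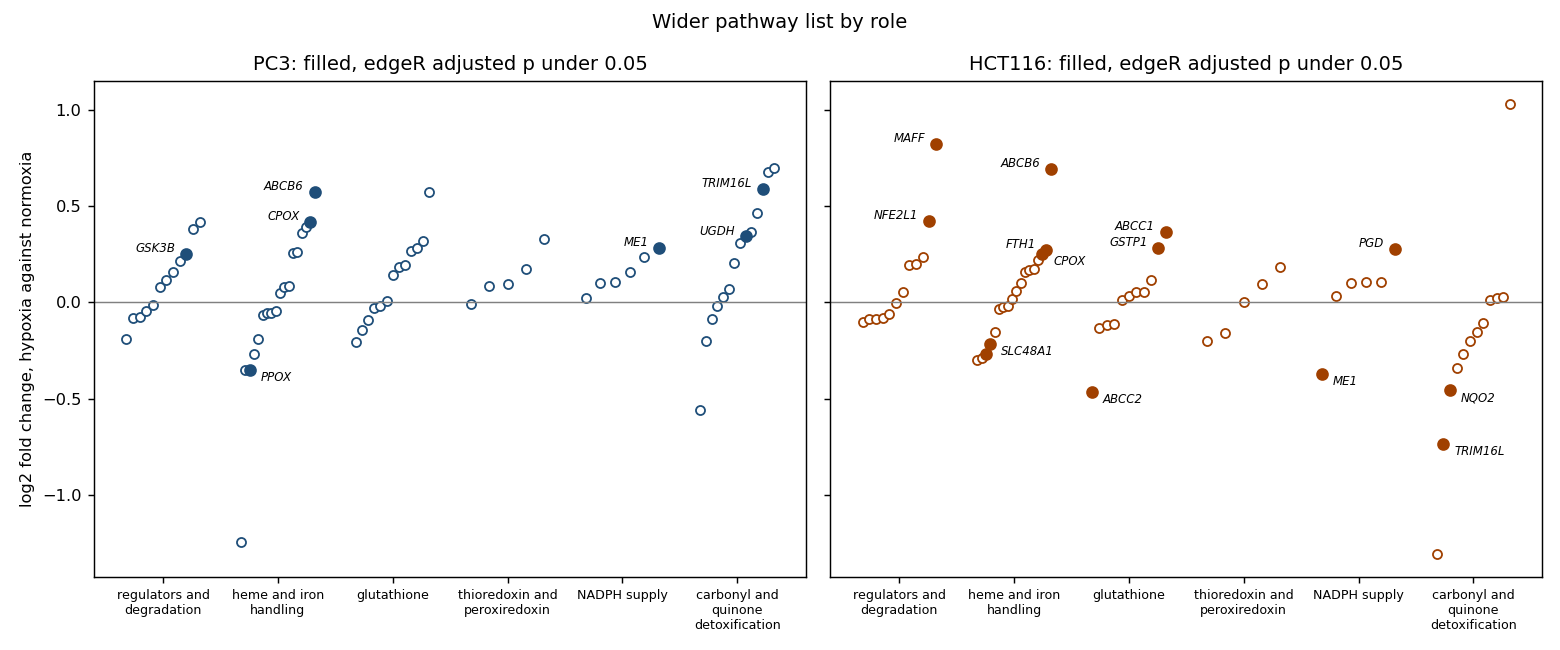
Log2 fold change in hypoxia against normoxia (vertical axis) of the wider pathway list by role, in PC3 (left, 68 genes) and HCT116 (right, 64 genes). Filled points, most of them named, passed the edgeR test at an adjusted p under 0.05 (7 in PC3, 14 in HCT116); TRIM16L and ME1 are filled on opposite sides of 0 in the panels.

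At baseline 60 of the 68 genes differed between the lines (88.2%, beside 83.4% of all genes), 25 higher and 35 lower in PC3. The largest rises in PC3 were those of the carbonyl reductase CBR1 and the glutathione transferase GSTM3, which were at 65.5 ± 4.01 and 20.3 ± 0.780 CPM in PC3 and had at most 1 count in any normoxic HCT116 library. Against a floor of 3 counts per library they were at least 2916-fold and 902-fold higher in PC3. CBR3 stood at 23.9 ± 1.92 against 1.38 ± 0.252 CPM, AKR1C3 at 4.57 ± 1.78 against 0.119 ± 0.031 CPM and GPX2 at 2.95 ± 1.13 against 0.0263 ± 0.022 CPM, and AKR1C3 may share reads with its paralogs. The largest falls were AKR1B1 (1.23 ± 1.13 in PC3 against 47.7 ± 1.08 CPM, with a log2 difference of -5.29 that was -6.18 without PC3 normoxia replicate 1), ABCG2 (0.179 ± 0.101 against 4.01 ± 0.195 CPM), ABCC2 (2.44 ± 0.138 against 52.1 ± 3.83 CPM), CPOX (82.0 ± 2.54 against 483 ± 10.9 CPM) and PRDX3 (111 ± 10.3 against 627 ± 117 CPM). All 10 passed with edgeR adjusted p at most 4.67e-06. Of the ferritin genes, FTH1 was 1.80 ± 0.15 higher and FTL 1.87 ± 0.11 lower on the log2 scale in PC3.

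The genes whose level over the 14 libraries was most like that of HMOX1, by Pearson correlation of log2 CPM among 13136 genes, were ARTN (r = 0.956), PFKFB3 (0.929), FAM46A (0.916), TOB1 (0.897) and TMEM171 (0.887). ARTN, a ligand of the GDNF family, went from 3.90 ± 0.633 to 15.4 ± 2.12 CPM in PC3 and from 7.34 ± 1.11 to 6.47 ± 0.499 CPM in HCT116, so it had the same order of groups as HMOX1. PFKFB3, a regulator of glycolysis, went from 53.6 ± 2.39 to 149 ± 10.9 CPM in PC3 and from 67.7 ± 2.31 to 79.2 ± 5.38 CPM in HCT116. Of the other 9 genes GCLM came closest (r = 0.77), then KEAP1 (0.58) and GCLC (0.54), while BACH1 (0.35), NQO1 (0.13), NFE2L2 (-0.13) and SRXN1 (-0.24) were further away. The 14 points fall into 4 groups that share line and oxygen, so these values describe the order of the groups and carry no p. By Spearman correlation 2 of the 5 genes were again among the 5 highest.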

How the data were processed

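Polyadenylated RNA was sequenced from 14 libraries, and the authors deposited for each a table of raw counts of reads per RefSeq gene. Per the study's methods and the submitters' processing notes, reads were aligned with HISAT2 2.05, first against ERCC spike-in controls and the remainder against GRCh37, filtered with SAMtools and counted with HTSeq 0.5.4p3 in its strict intersection mode, without pooling replicates. The strand setting and annotation release are not given in the sources used here, and no row for unassigned reads is in the tables. The deposited counts were used as they are.

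The 10 genes, the wider list and the tests were chosen with earlier results of these data known. Groups come from the sample titles. Each comparison was fitted on its own libraries with edgeR 4.0.16 (R 4.3.3): filterByExpr, TMM factors, a quasi-likelihood test and Benjamini-Hochberg adjustment over all genes tested, with a threshold of 0.05. Standard errors were derived from each estimate and its F statistic, and 95% intervals use the t quantile at edgeR's degrees of freedom. The difference of the responses is the interaction in a fit over all 14 libraries. Printed CPM are on a scale common to the 14 libraries, and values after ± are SD for levels and ratios and standard errors for log2 fold changes. Log2 CPM used a prior count of 1. CPM per kb used the annotated transcript length. Scripts were tested on simulated counts.

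The wider list names, per comparison, the 5 largest rises and falls past the threshold, and always HMOX2, BLVRA, BLVRB, FTL, FTH1, MAFF, MAFG, MAFK, NFE2L1 and SQSTM1. GSK3B, PGD, SLC48A1, FECH, FLVCR1 and SLC40A1 were named in addition after their values were seen. Some genes that the rules would name are not reported here. The likeness to HMOX1 was computed over genes that averaged 1 CPM or more in their highest group.

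Totals ran from 71228454 to 150630928 counts, and 3 counts corresponded to 0.0201 to 0.0445 CPM, a floor that covers counting error only. No pair of replicates came within sampling noise of each other (chi-square per gene of 12.5 or more). Replicate numbers stand in the titles. In PC3, deviations from the group means of same-numbered normoxic and hypoxic libraries correlated at 0.675, 0.267, 0.140 and 0.282, so the numbers were taken to pair the libraries. In HCT116 the values were 0.0908, 0.138 and 0.0429, and whether the numbers pair the libraries is undecided. Both the hypoxia and the line comparisons use the same normoxic libraries, so their results are not independent of each other.

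Gene positions are from GENCODE v44lift37 on GRCh37. Promoter sequences are from RefSeq (GRCh38.p14), with GRCh37 positions from exact matches. As alternatives, libraries were scaled by total count, by upper quartiles or by median ratios, and the tests repeated with DESeq2 1.42.0, other filters on low counts, the replicate block, a fit over all 14 libraries and leaving out each library. Leaving out PC3 replicate 1 in both conditions was chosen after seeing the data.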

Additional observations from a re-analysis of the deposited data

Results flagged for a closer look

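BACH1 in PC3 normoxia replicate 1 was at 63.8 CPM, while the other 3 normoxic libraries lay between 48.7 and 49.3 CPM. It was the only 1 of 20 sets of 4 libraries with a value this far from the rest, and 1 in 20 is expected by chance. Without that library the PC3 log2 fold change of BACH1 was 0.62 ± 0.09.

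In 4 of the 78 genes compared (5.13%), every hypoxic PC3 library was above every normoxic one and every hypoxic HCT116 library below every normoxic one, beside 74 of 12358 genes tested in both lines (0.599%). The genes were chosen with the PC3 results known, so nothing is read from that share. The difference of log2 fold changes, PC3 minus HCT116, was 0.94 ± 0.09 for GCLM, which was not tested because GCLM was chosen with its PC3 response known. It was 1.34 ± 0.18 for TRIM16L (edgeR interaction, adjusted p = 0.00109), 0.67 ± 0.11 for ME1 (adjusted p = 0.00446) and 0.51 ± 0.11 for UGDH (adjusted p = 0.0244). The UGDH call was lost in 7 of 22 alternatives, and those of TRIM16L and ME1 held in all 22. TRIM16L, ME1 and UGDH were flagged by their opposite moves in the same libraries, so these interaction tests are no independent support.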

How the results depend on the processing

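The PC3 log2 fold change of HMOX1 stayed between 3.39 and 3.61 in all 17 alternatives. The HCT116 calls of GCLM and SLC7A11 held in all 14.

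With the replicate block, the wider list in PC3 went from 7 to 28 genes past the threshold, including all 7, and in HCT116 from 14 to 15 (MAFK added). Every normoxic HCT116 library correlated best, though weakly, with the hypoxic one of its own number, so whether the numbers pair these libraries is undecided. The 4 genes of the 10 past it in HCT116 were the same with the block. Between the lines the block joined PC3 and HCT116 libraries by number alone. No label pairs libraries across the lines, so nothing is read from that fit. In it the same 8 genes passed, and the line differences of HMOX2 and MAFK were 0.0146 and 0.00221.

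Without the filter on low counts the wider list had 4 genes past the threshold in PC3, and without both libraries of PC3 replicate 1 it had 11. A fit over all 14 libraries left 8 in HCT116 and put MAFK at 2.75e-05 between the lines. When an absolute log2 fold change of 1 was required as well, 0 of the wider list remained in PC3, 0 in HCT116, 0 of the 10 genes in HCT116 and 2 between the lines. Leaving out single libraries gave 2 to 11 genes of the wider list in PC3, where the 7 calls lie near the threshold.

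Scaling by total count left 2 of the 10 genes past the threshold in HCT116. It turned the sign of HMOX2 (-0.0252) and BLVRA (-0.0586) in PC3, of NQO1 (-0.0121), HMOX2 (-0.0287) and BLVRA (-0.0712) in HCT116, and of HMOX2 (0.0796), BLVRB (0.0243) and MAFK (0.0796) between the lines, where GCLM also lost its call. With upper-quartile scaling SRXN1 stood at -0.0171 between the lines. None of these values was past the threshold. Taking the median of the 6 targets put HMOX1 relative to them at -0.00191 in HCT116. The causes were not tested.

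Leaving out single libraries turned the sign of values near 0: MAFG (-0.19 to 0.0519) and MAFK (-0.17 to 0.0550) in PC3, BLVRA (-0.0438 to 0.0564) and SQSTM1 (-0.0299 to 0.0169) in HCT116, SRXN1 (-0.0337 to 0.0848), HMOX2 (-0.0604 to 0.0205) and MAFK (-0.11 to 0.0605) between the lines, and the difference in the NDRG1 response (-0.0730 to 0.34). In PC3 the calls of VEGFA and CA9 were lost in 3 and 2 of these. With 3 or 4 libraries a group, changes under about 0.2 on the log2 scale were mostly not told from the spread. In PC3 without the block larger ones were not either, such as 0.42 for SQSTM1 and 0.39 for FTH1, so a missing call there does not show the absence of a change.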
